A study of Caenorhabditis elegans with 2 samples.

Results

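P granules are the RNA and protein condensates that mark the germ cells of the nematode Caenorhabditis elegans. The genes described here code for 10 of their components: glh-1, glh-2, glh-3, glh-4, pgl-1, pgl-3, deps-1, meg-3, meg-4 and cgh-1. They were taken as a named list, and each was scored for peaks of UNC-130 in its promoter window among 19973 nuclear protein-coding genes. UNC-130 is a forkhead transcription factor, a class of DNA-binding proteins named after a fly gene. The data were ChIP-seq peak lists from 2 biological replicates of whole hermaphrodites at the L4 larval stage, 48 hours after they were released from starvation as L1 larvae. Both replicates were strain AGK541, with the transgene armSi1 on chromosome II, the mutation unc-119(ed3) on III and niDf199 on IV. The transgene joins the promoter of mex-5, active in the germline, to UNC-130, GFP and the 3' UTR of tbb-2, and it also carries an unc-119 gene labelled cb-unc-119(+). The immunoprecipitation used an anti-GFP antibody, and the labels name the tag as GFP, eGFP or GFP-FLAG. All lists were called against 1 control. The replicates form 1 group, so the only comparison available is that of these genes with other genes and of one replicate with the other. The fusion is made under a foreign promoter, so its peaks need not be those of UNC-130 made from its own gene, and in whole animals binding in more cells cannot be told apart from more binding in each cell.

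In textbook accounts, P granules sit over the pores of germ cell nuclei, where newly exported mRNAs and small RNA factors gather, and in the early embryo they move into the cells that will found the germline. PGL proteins form the scaffold, GLH proteins are Vasa-like RNA helicases that hold granules at the nuclear pore, DEPS-1 is needed for their normal form, and MEG proteins coat and stabilise them in the zygote. CGH-1 is a helicase of stored mRNAs that also occurs in granules of oocytes and in processing bodies.

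A promoter summit is here the peak position given by the authors when it falls between 1000 bp upstream and 200 bp downstream of the 5' end of a gene. Signal is the value the authors' lists give for each peak, on a scale that is not stated, and ranks count from the peak of highest signal in a list. Of the 10 genes, 3 had a promoter summit in the authors' list of peaks reproducible between replicates, the IDR (irreproducible discovery rate) list of 1667 peaks. These were glh-2, cgh-1 and pgl-3. The share was 30% (95% Wilson interval 10.8 to 60.3), and 7.85% of all protein-coding genes had such a summit. In the relaxed list of the pooled reads, which by its label holds background as well as peaks, 7 of the 10 had a promoter summit, against 30.4% of all protein-coding genes. The deposited −log10 q-values of these pooled summits were as low as 0.231 at glh-3 and 0.567 at meg-3. They were 1.73 at pgl-1 and 2.80 at glh-2, pgl-3, deps-1 and cgh-1. The relaxed list of replicate 1 gave 6 of the 10, against 31.0% of all protein-coding genes. That of replicate 2 gave 8 of the 10, against 31.7% of all protein-coding genes. Both replicate lists also hold background. The genes glh-4 and meg-4 had no promoter summit in any list. The shares of all protein-coding genes were not matched by chromosome, and they differed between chromosomes. On I, 1 of the 5 listed genes had an IDR promoter summit, against 12.02% of coding genes there. In the pooled list 3 of these 5 had one, against 43.88%. The IDR and pooled shares were 13.71% and 46.82% on III, where cgh-1 lies. On V, where pgl-3 lies, they were lower, at 4.946% and 21.17%. No test was made on these counts, since the genes were listed with earlier results of these data known and each is a single locus. The Wilson interval treats the genes as random draws, which a chosen list is not, so it is no test against the share of all coding genes.

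**Figure D1:**
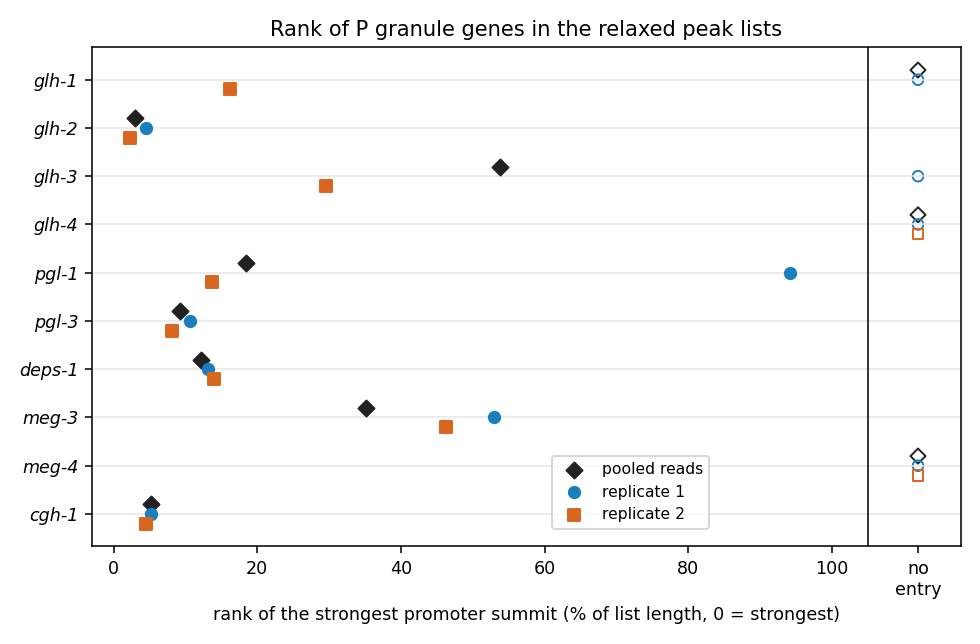
Rank of the strongest promoter summit of each gene in the relaxed lists of the pooled reads (diamonds), replicate 1 (circles) and replicate 2 (squares), as a percentage of the list length on a linear axis with the strongest peak at 0; open markers at the right mark a list with no promoter summit. The summits of glh-2, cgh-1, pgl-3 and deps-1 lie within the upper 14% of each list, those of pgl-1 lie far apart in the replicates, and glh-4 and meg-4 have none.

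The bases at or beside the summits are shown for the 4 genes with a pooled summit whose sequence can be given, so that the positions described below can be read against the DNA. Each run is 30 bases of the RefSeq WBcel235 sequence (the assembly that ce11 names), 5' to 3' on the strand of the gene. For pgl-3 (chrV:4755504-4755533, plus strand) the capitals mark the word TTCCCGC, found on the other strand so that it reads here as its reverse complement, GCGGGAA, and the run ends 1 base before the summit. For pgl-1 (chrIV:6977280-6977309, minus strand), meg-3 (chrX:1989589-1989618, minus strand) and cgh-1 (chrIII:7498616-7498645, minus strand) the capital marks the summit base.
pgl-1: tcagatctacgggtcTcgaaacgaacaact
pgl-3: cagtgttcacaGCGGGAAaagatagataaa
meg-3: gatttttgcaggtatGagttcctcaaaacc
cgh-1: tttcgcgcgttggctGagtattcaactttt

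Of the scaffold genes, pgl-3 had a reproducible peak and pgl-1 did not. The pgl-3 gene is WBGene00003994 (V, 4755979 to 4758587) and pgl-1 is WBGene00003992 (IV, 6974441 to 6977318). The pgl-3 peak (V, 4755324 to 4755743) had its summit 445 bp upstream of the 5' end, in the intergenic DNA between pgl-3 and hil-4, a histone H1 gene on the same strand whose 3' end lies 526 bp from the 5' end of pgl-3. The summit was thus closer to the 3' end of hil-4 than to the 5' end of pgl-3. The signal of the peak was 61.4 in the pooled list, at rank 1575 of 16959, 22.4 in replicate 1, at rank 2041 of 19058, and 38.7 in replicate 2, at rank 1515 of 18463. It thus stood close to the foot of the IDR list, whose lowest signal was 58.84, and it was not among the 1667 strongest peaks of replicate 1. A second IDR peak, of signal 61.8, had its summit 1672 bp upstream of pgl-3, at the 5' end of hil-4 and outside the promoter window of pgl-3.

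At pgl-1 the replicates disagreed. The pooled summit (IV, 6977084 to 6977503, signal 38.7, rank 3118) lay 24 bp inside pgl-1, in an annotated coding exon, and 214 bp upstream of him-3, a gene of the meiotic chromosome axis that is read in the other direction. Replicate 2 had the same interval at signal 27.8 and rank 2523. Replicate 1 had an entry 30 bp upstream of the 5' end at signal 8.22 and rank 17945, which is 94.2% of the way down its list. The −log10 q-value of this entry was 0.0306, against 2.34 for the entry of replicate 2. The ranks differed by 80.5 percentage points of the list length. Among 4314 coding genes with a promoter summit in both replicates the median difference was 7.25 points, and 0.394% of them differed by as much as pgl-1 or more.

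**Figure D2:**
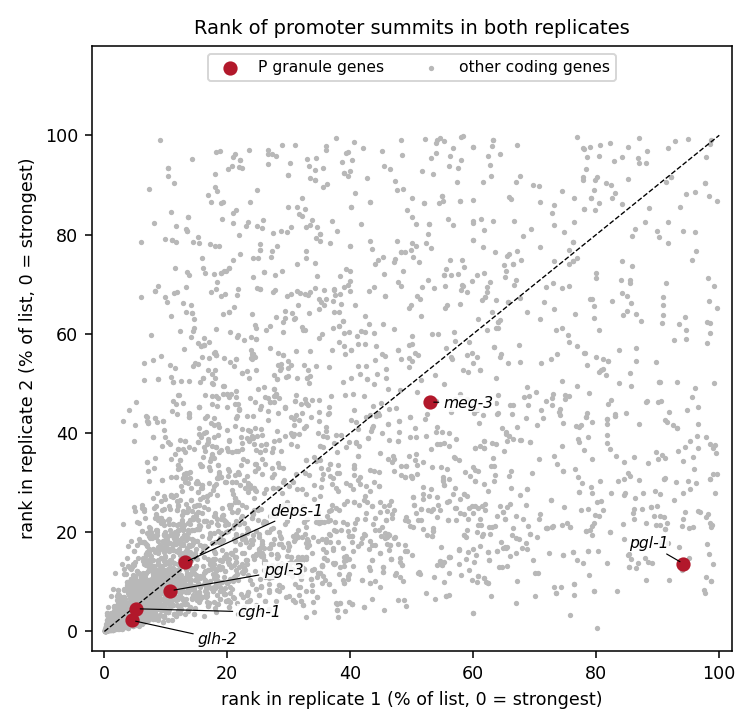
Rank of the strongest promoter summit in replicate 1 (x axis) against replicate 2 (y axis), each as a percentage of the list length with the strongest at 0, for the 4314 coding genes with a summit in both replicates; red points are P granule genes and the dashed line marks equal rank. The points of glh-2, cgh-1, pgl-3, deps-1 and meg-3 lie near the line, and pgl-1 lies at 94.2% in replicate 1 and 13.7% in replicate 2.

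Both MEG genes, which code for disordered proteins that cover and stabilise P granules in the embryo, lack a reproducible peak and both lie on the X chromosome. They are meg-3 (WBGene00001569, X, 1986469 to 1989607) and meg-4 (WBGene00016485, X, 1682954 to 1686419). The pooled list had a summit at meg-3 (X, 1989393 to 1989812) 4 bp inside the gene, with signal 27.0 at rank 5966. An entry at this place was also listed in replicate 1 (signal 10.7, rank 10089) and replicate 2 (signal 14.8, rank 8538), near the middle of either list. The −log10 q-values of these entries were low, 0.229 in replicate 1 and 0.336 in replicate 2. At meg-4 the entry nearest to the promoter lay 1472 bp inside the gene, in a coding exon, with a pooled signal of 22.3 at rank 8798. Promoter summits are rare on X in general, where 1.10% of 2731 coding genes had one in the IDR list and 16.8% in the pooled list. On the autosomes the shares were 8.92% and 32.6% of 17242 coding genes.

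The cgh-1 gene, whose product resembles the yeast helicase Dhh1, had the second highest signal of the 10 genes. The gene is WBGene00000479 (III, 7495320 to 7497832). Its IDR peak (III, 7498420 to 7498839) had a pooled signal of 84.2 at rank 884, and the peak stood at rank 991 in replicate 1 (signal 33.2) and at rank 844 in replicate 2 (signal 53.0). The ranks thus differed by 0.629 percentage points of the list length, the smallest difference among the 6 genes with a summit in both replicates. The summit lay far from the gene, 798 bp upstream of the 5' end, in the intergenic DNA between cgh-1 and C07H6.9 on the same strand. The summit was closer to the 3' end of C07H6.9, which lies 916 bp from the 5' end of cgh-1. With a window of 500 bp upstream it is not counted, which leaves 2 of the 10 genes with an IDR summit. No other coding gene had this summit in its promoter window, and cgh-1 was the coding gene with the nearest 5' end. A weaker pooled peak of signal 53.4 lay 1845 bp upstream, beyond C07H6.9.

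The 4 GLH genes, whose products are DEAD-box RNA helicases related to Vasa, are all on chromosome I and differed widely. They are glh-1 (WBGene00001598, 6854478 to 6857536), glh-2 (WBGene00001599, 6513928 to 6517507), glh-3 (WBGene00001600, 5792321 to 5795114) and glh-4 (WBGene00001601, 3727027 to 3731179). The highest signal of all 10 genes was at glh-2 (I, 6513733 to 6514152). It was 109 in the pooled list at rank 516, 36.003 in replicate 1 at rank 851 and 73.0 in replicate 2 at rank 413. The summit lay 15 bp inside the gene, in its 5' UTR, and 113 bp upstream of C55B7.11, a coding gene that starts 98 bp away on the opposite strand. The peak thus belongs to a promoter region shared by both genes. Of the 3 genes with an IDR summit, glh-2 alone was among the 833 strongest of that list.

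At glh-1 the outcome rested on the edge of the window. No list but that of replicate 2 had a promoter summit, with signals of 25.0 at 218 bp and 21.2 at 18 bp upstream and ranks of 2999 and 4017. Just past the window, however, replicate 1 had a peak 223 bp inside the gene, in the annotated 5' UTR, with signal 30.7 at rank 1159, and so among its 1667 strongest peaks. The pooled list had it 261 bp inside the gene (signal 44.2, rank 2542) and replicate 2 273 bp inside (signal 17.7, rank 5741). With the window drawn to 300 bp downstream, a choice made after this peak was seen, 8 of the 10 genes had a pooled summit and the IDR count stayed at 3. Of 2372 coding genes with a replicate 2 rank as good as that of glh-1 or better, 96 (4.05%) had no promoter summit in replicate 1. Only 3, glh-1 among them, had none in replicate 1 or the pooled list. Of the 36-base words in the glh-1 promoter window, 78.3% occur once in the genome. The part of read mapping in these values was not tested.

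The remaining GLH genes had weak entries or none. At glh-3 the pooled list held a summit 183 bp upstream with signal 22.0 at rank 9121, and replicate 2 held it with signal 18.2 at rank 5461, while replicate 1 had none. At glh-4 the nearest pooled entry was 1583 bp upstream with signal 16.5, close to the lowest signal of that list (16.3). In the glh-4 window 66.4% of 36-base words occur once in the genome, while in glh-2 and glh-3 all do.

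The deps-1 gene (WBGene00022034, I, 506473 to 509056), needed for the normal assembly of P granules, fell below the reproducible list. That list holds the 1667 strongest peaks of the pooled list. The pooled peak of deps-1 (I, 506116 to 506535) had signal 51.4 at rank 2066, against 58.84 for the last IDR peak and 58.82 for the strongest peak left out. Replicate 1 had signal 20.3 at rank 2494 and replicate 2 had 27.4 at rank 2574, a difference of 0.855 percentage points of the list length. Its pooled q-value, 2.80 on the −log10 scale, equalled that of every IDR peak. The pooled summit was 147 bp upstream of deps-1 and 76 bp upstream of Y65B4BL.4 on the opposite strand, and this second gene had the nearer 5' end. As with glh-2 and pgl-1, a pair of divergent genes shares this summit.

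Set in order of pooled signal, the genes were glh-2, cgh-1, pgl-3, deps-1, pgl-1, meg-3 and glh-3. Both replicates gave the order glh-2, cgh-1 and pgl-3 for the strongest peaks. For pgl-1 and deps-1 the order was reversed in replicate 2, where their signals were 27.8 and 27.4, against 8.22 for pgl-1 and 20.3 for deps-1 in replicate 1, so these neighbours are not told apart. The median pooled signal of the 7 genes with a summit was 51.4, and that of the 6074 coding genes with one was 31.7. In the IDR list the median was 84.2 over the 3 genes and 94.9 over the 1568 coding genes. Their signals of 61.4 to 109 lay within the range of the IDR list and, for cgh-1 and pgl-3, below its median for coding genes.

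Among coding genes that do not share the glh-2 summit, the peaks most like it were those of F29A7.3, F29A7.6 and cdk-1. F29A7.3 and F29A7.6 have equal values because they share a summit, and cdk-1 is the cyclin-dependent kinase of mitosis. Likeness was the root mean square difference in log2 signal over the pooled list and both replicates, which share reads. It was taken among 4096 coding genes, with the P granule genes and the related lists described below left out. It was 0.0207 for F29A7.3 and F29A7.6, with signals of 109 pooled, 36.4 in replicate 1 and 71.4 in replicate 2. For cdk-1 it was 0.0226, with 112 pooled, 35.7 in replicate 1 and 73.1 in replicate 2.

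Summits were also found away from promoters. In the pooled list 7 of the 10 genes had a summit inside the gene more than 200 bp past the 5' end, against 28.5% of all protein-coding genes. In the IDR list 1 did, glh-1, against 1.80% of all protein-coding genes. That peak (I, 6857211 to 6857630) lay in the 3' UTR of glh-1, 115 bp before its 3' end, with a pooled signal of 61.9 at rank 1553. It was at rank 1826 in replicate 1 (signal 23.8) and 1389 in replicate 2 (signal 40.6), and the next coding 5' end, that of let-383, was 4892 bp away. So glh-1 had a peak of the IDR list at its end and none in its promoter window.

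Several other genes of the list had a summit at the 3' end, a feature noticed in the data and then counted. Within 300 bp of the 3' end, the IDR list had a summit at 2 of the 10 genes, glh-1 and cgh-1, against 2.40% of all protein-coding genes. The pooled list had one at 5 of the 10, against 20.5% of all protein-coding genes. The cgh-1 summit lay 103 bp past the 3' end inside the noncoding gene C07H6.15, with a pooled signal of 79.8 at rank 978. Its rank was 596 in replicate 2 (signal 62.6), while the nearest peak of replicate 1 was at rank 2606 (signal 19.8). The pgl-1 summit lay 103 bp past the 3' end with a pooled signal of 51.9 at rank 2040. It was found in both replicates, at rank 2793 in replicate 1 and 2056 in replicate 2, so at pgl-1 the entry past the end ranked higher than the one at the start in every relaxed list. The glh-3 summit past the 3' end, of pooled signal 54.9, was also 275 bp upstream of cpb-3, and the deps-1 summit, of pooled signal 33.3, lay in a coding exon of Y65B4BL.7. None of these summits was within 500 bp of a tRNA gene. The IDR promoter summits of pgl-3 and cgh-1 also lay within 300 bp of a 3' end, that of the upstream gene (hil-4 and C07H6.9). Nearness to the 3' end of an upstream gene was not counted over all IDR promoter summits. It therefore does not set these genes apart.

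**Figure D3:**
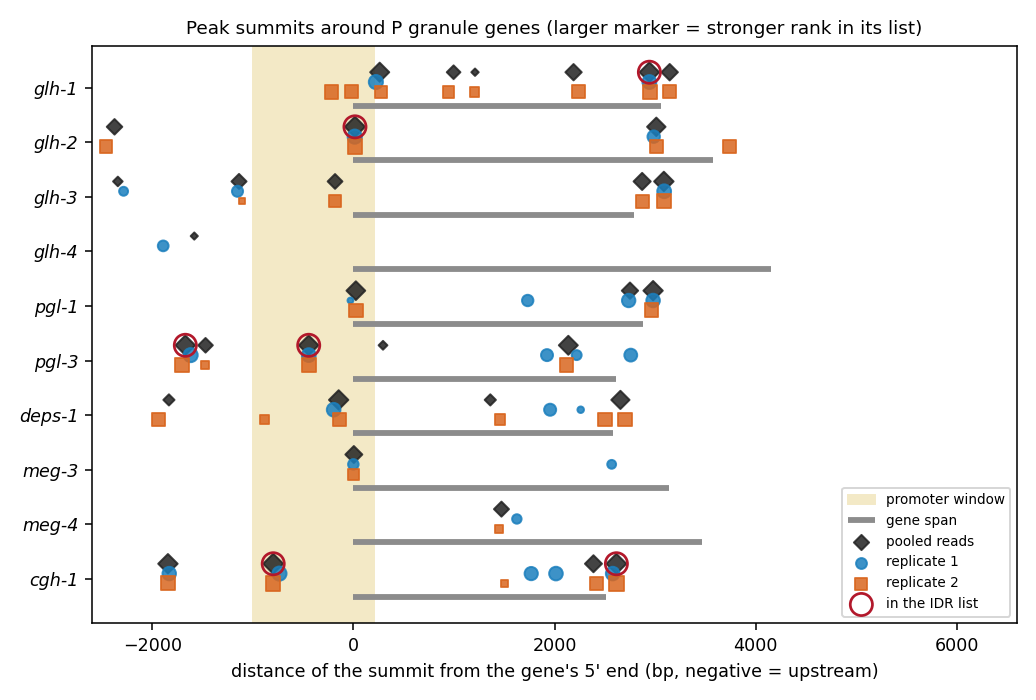
Position of every summit around the 10 genes relative to the 5' end (x axis, bp, negative upstream), for the pooled reads (diamonds), replicate 1 (circles) and replicate 2 (squares); marker area grows with the strength of the rank, red rings mark IDR peaks, grey bars the gene spans and the shaded band the promoter window. IDR peaks lie in the windows of glh-2, pgl-3 and cgh-1, and also at the 3' ends of glh-1 and cgh-1 and 1672 bp upstream of pgl-3.

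Words were searched on both strands of the DNA near these summits. They were GTAAACA and its inner part TAAACA (the core bound by forkhead proteins), GAGAGA, CTGCGTCTC and TTCCCGC (part of the E2F site). Within 50 bp of the 7 pooled promoter summits, TTCCCGC occurred at pgl-3, as printed above with the sequences, and no other word occurred at any. Among the windows of the same length at 1648 nuclear IDR summits, GTAAACA occurred in 2.25%, TAAACA in 7.89%, GAGAGA in 11.8%, CTGCGTCTC in 4.25% and TTCCCGC in 3.34%. With only 7 windows, the counts at these genes cannot be set apart from those shares. In the whole promoter windows, GTAAACA occurred at 1 of the 10 genes, glh-1, 362 bp upstream, against 15.1% of 19972 coding promoters. TAAACA occurred in 5 of the 10, against 63.6% of coding promoters, at distances of 68 bp or more from the pooled summit where there was one. GAGAGA occurred in 5 of the 10, against 50.9% of coding promoters. TTCCCGC occurred in 1, pgl-3, against 11.45%, and CTGCGTCTC in none, against 6.81%. A word in such a window is a description of the letters and does not show a site.

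Genes that work with these proteins were described from 4 further lists. Of 24 genes for the assembly and regulation of P granules, 7 had an IDR promoter summit (29.2%) and 14 a pooled one. The highest signals were at larp-1, an RNA-binding protein (III, 5018185 to 5018403, signal 240.5), npp-7, a nuclear pore protein (I, 5691555 to 5691974, signal 91.4), mip-1, a partner of GLH-1 with LOTUS domains (III, 4792572 to 4792991, signal 78.6), and spn-4, an RNA-binding protein of early embryos (V, 6785052 to 6785471, signal 74.2). The other MEG genes listed, meg-1 and meg-2, had a promoter summit in replicate 2 alone, with signals of 11.3 and 11.8, and pgl-2 had none in any list.

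Of 20 genes for the removal of PGL proteins by autophagy, 2 had an IDR promoter summit (10%) and 12 a pooled one. The IDR summits were at epg-6 with signal 107 and epg-8 with signal 62.7. Of the adaptor genes, sepa-1 had no promoter summit in any list. The epg-2 gene had none in the IDR list but had one in the pooled list (signal 24.3), in replicate 1 (signal 13.8) and in replicate 2 (signal 15.9). Of 25 genes of other germ granule compartments, 5 had an IDR promoter summit (20%) and 20 a pooled one, and the IDR signals were led by mut-15 of the mutator foci (signal 196), pid-5 (signal 164), simr-1 (signal 83.6) and the Z granule helicase gene znfx-1 (signal 75.0).

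The mRNA storage and decay partners of CGH-1 had an IDR promoter summit at 9 of 21 genes (42.9%) and a pooled one at 18. The IDR signals were led by ifet-1, a repressor of translation (signal 169.7), lsm-3 (signal 129), the Y-box gene cey-2 (signal 122) and edc-4, which promotes decapping (signal 105). The background of all protein-coding genes is the 7.85% and 30.4% given above. Of the 23 genes in these lists with an IDR promoter summit, 18 shared it with another coding gene, so that the ifet-1 summit is also that of the ribosomal protein gene rps-1, the mut-15 summit that of the fibrillarin gene fib-1 and the pid-5 summit that of the cohesin gene coh-4. Sharing was not counted over all coding genes with an IDR promoter summit, so these lists cannot be set apart from other genes by it. No RNA was measured, so transcription of the genes was not set against their peaks.

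**Figure D4:**
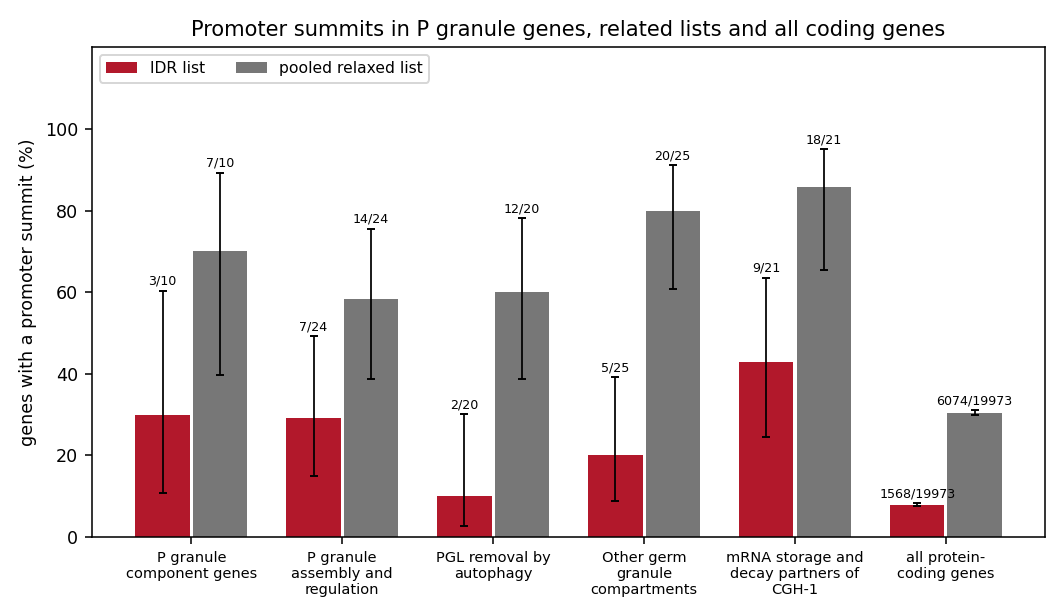
Share of genes with a promoter summit in the IDR list (red) and the pooled relaxed list (grey) for the 10 P granule genes, the 4 related lists and all protein-coding genes; bars start at 0, error bars are 95% Wilson intervals and the numbers are genes with a summit of genes scored. The 10 P granule genes stand at 3 and 7, and all protein-coding genes at 1568 and 6074 of 19973. The intervals treat the listed genes as random draws and are no test between the bars.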

How the data were processed

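The authors deposited ChIP-seq peaks on ce11 as 4 lists: peaks and background for each replicate and for the pooled reads, called against 1 control, and an IDR list, per the deposited text listings. The deposited signal (column 7) has no stated scale, so signals are compared within a list and ranks across lists. The deposited −log10 q-value (column 9) is at its maximum in all IDR peaks. It was quoted only for the pooled promoter summits of the P granule genes and for the replicate entries at pgl-1 and meg-3. The deposited summit offset, another value (column 10), is the centre of a fixed interval of about 420 bp in 98.7% of pooled entries, so summit distances are approximate. No aligner or peak caller is named in the sources used here. Read depth is unknown, and Wilson intervals at the 95% level cover counting error over genes only. Columns of per-sample values tied to no sample numbered 0.

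Genes came from Ensembl release 115 and sequence from RefSeq, both WBcel235, and every peak lay within its chromosome. Python 3.11.15, pandas 2.3.3 and scipy 1.17.1 were used. Scoring was tested on simulated data. All 10 genes, every gene sharing their summits, up to 4 genes of each related list by IDR signal and the 3 genes most like glh-2 were named; meg-1, meg-2, pgl-2, sepa-1 and epg-2 were added after their values were seen. The name ntl-1 was not found in the annotation, which leaves 21 of 22 genes in its list. The genes and lists were chosen with earlier results of these data known. Alternatives covered the window, the 5' end, gene assignment, tRNA genes, the IDR threshold and each replicate alone.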

Additional observations from a re-analysis of the deposited data

How the results depend on the processing

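The IDR count of 3 genes was kept with 6 of the other settings and was 2 with a window of 500 bp upstream (without cgh-1). Among the 833 strongest IDR peaks it was 1, glh-2. With the strongest peaks of each replicate alone it ranged from 2 to 3, with pgl-3 lost in replicate 1. The pooled count of 7 ranged from 6 to 8. It gained glh-4 with 2000 bp upstream, and glh-1 with peak intervals, with replicate 2 alone or with 300 bp downstream, a window added after seeing the data. It lost cgh-1 with 500 bp upstream, deps-1 with the nearest 5' end only and glh-3 with replicate 1 alone. The share of all protein-coding genes with an IDR summit was 6.46% with a window of 500 bp upstream, 9.70% with 2000 bp, 8.24% with all transcript 5' ends, 5.35% with the nearest 5' end only, 8.40% with peak intervals, 4.53% with the 833 strongest peaks, and 7.35% to 7.88% with each replicate alone. The pooled share was 24.1%, 38.5%, 32.9%, 24.9% and 34.1% under the first 5 of these settings, 31.3% with 300 bp downstream, and 31.0% to 31.7% with each replicate alone. By their definition, wider windows, more 5' ends and peak intervals can only add genes. A narrower window, the nearest 5' end only and fewer IDR peaks can only remove them. The cause of the shifts with each replicate alone was not tested. Of the pooled signals by gene, 45 values moved by no more than the spread between replicates and 2 moved, both at glh-3, which has no spread between replicates because replicate 1 holds no summit (22.4 with 2000 bp and with peak intervals). There was no value for cgh-1 with 500 bp upstream or for deps-1 with the nearest 5' end only. Depth is unknown, so the absence of an entry at glh-4 or meg-4 says only that none was listed.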
